A study of Danio rerio with 2 samples.

Results

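Genes for the proteins of the spliceosome and for proteins that bind pre-mRNA and mRNA were described on 2 Affymetrix zebrafish arrays, 1 for each of 2 pigment cell preparations from adult fins. A gene was included when its symbol in the platform annotation begins with snrp, sf3a, sf3b, u2af, prpf, srsf, hnrnp or ptbp, or with lsm or rbm followed by a number. This gave 133 probe sets (sets of short probes against 1 transcript) for 103 of the 8793 genes with a symbol of their own. The rule reads names only and no measured value. It also takes in proteins that act outside the spliceosome, among them lsm11, which processes histone mRNA, the lsm14 proteins, which hold mRNAs in translational repression, and rbm28, a nucleolar protein of ribosome assembly.

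Both preparations came from the caudal and anal fins of wild-type zebrafish over 2 months old, bought from a pet shop, with fins of 1000 fish pooled, digested with trypsin and then collagenase, and separated into melanophores (black, melanin-bearing cells) and xanthophores (yellow cells) by centrifugation or sorting. Which of these methods served which sample is not stated. Per the labels both groups share genotype, fish source, tissue, stage and digestion, and are named for the pigment cell collected; the separation method may differ between them. The labels contradict each other: the sample titled melanophores names xanthophores as its source and cell type, and the sample titled xanthophores names melanophores. The arrays are therefore called by their titles, the melanophore-titled array is given first in every pair of values, and a log2 ratio is that array over the other. With 1 array per preparation no difference has a replicate check and no test between the preparations was possible.

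In splicing, the small nuclear ribonucleoproteins (snRNPs), each an RNA with a ring of Sm or LSm proteins and further subunits, recognise the ends of an intron and assemble into the spliceosome, which removes it. SR proteins, encoded by the srsf genes, mostly promote the use of nearby exons, and many hnRNP proteins coat nascent transcripts and often oppose exon use, so that the balance of these families can set which isoform a cell makes. All cells that make mRNA use the core machinery, and the regulators vary more between tissues.

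Signals are MAS 5.0 intensities on a linear scale. A gene counted as measured if at least 1 of its signals was no lower than the median of that array (47.2 for the melanophore-titled array, 43.5 for the other), and signals under the median were raised to it before a ratio was taken, so that such a ratio is only a bound. All 18 hybridisation spike-in probe sets were higher on the melanophore-titled array (median log2 ratio 0.38, range 0.18 to 0.97), and the 5504 measured genes had a median log2 ratio of 0.36. Ratios are therefore given as deposited and also read against this shift of 0.36. The only error available is technical. Measured probe sets of the same gene differed in log2 ratio with an SD of 0.46 (598 genes), a factor of 1.38, and those of the 13 splicing genes with over 1 such probe set with an SD of 0.54.

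Pigment markers went both ways as deposited, but those that differed 2-fold or more all went against the titles. Of the 3 measured melanin genes, dct stood at 50.1 against 590.1, against the titles. As deposited, mitfa (358 against 243) and tyr (48.4 against 39.2, at least 1.11-fold) went with the titles. With the median of all measured genes subtracted, mitfa stood at 1.15-fold and the bound for tyr was 0.87-fold. Neither then clearly followed the titles. Of the xanthophore markers 5 of 7 measured differed 2-fold or more towards the melanophore-titled array, against the titles, and 0 in the other direction. Among the 5, bco1 stood at 3076 against 95.2, scarb1 at 2207 against 98.2, slc2a11b at 1278 against 207 and gch2 at 804 against 140.5. The gene slc2a15b, at 3444 against 4349, went with the titles. Markers of other fin cells also moved: 8 of 8 measured genes of connective tissue and bone were 2-fold higher on the xanthophore-titled array (summed signal 5249.5 against 21432), as were 2 of 2 measured erythrocyte genes (137 against 1199.8 over the whole list), and 4 of 5 measured endothelial genes were 2-fold higher on the melanophore-titled one (3962 against 901). Keratinocyte markers summed to 20549 against 16586, and 4 of 9 measured lay above the median of all measured genes. Of the 9, 3 were 2-fold or more higher on the melanophore-titled array. The marker agr2, at 110.6 against 201, was 1.82-fold higher on the other. Leukocyte markers summed to 748 against 555 (2 of 5 measured 2-fold or more higher there and 1 on the other). The collagen gene col1a1a stood at 1616 against 6611. Some markers were too dim to be measured on either array, among them 4 of the 9 leukocyte genes. The part of these cells in the ratios below was not tested. In bulk RNA, fewer cells of a type and less RNA per cell cannot be told apart.

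Splicing genes were much alike on the 2 arrays. Of 92 measured genes, 13 differed 2-fold or more towards the melanophore-titled array (14.1%, beside 15.5% of all measured genes), 0 did so towards the xanthophore-titled array (beside 4.09%), and 79 lay within 2-fold. Their median log2 ratio was 0.50, against 0.36 over all measured genes, and 56 of the 92 lay above that overall median. The ratios spread with an SD of 0.48, where those of all measured genes had 0.80, and ran from -0.72 to 1.48. Read against the overall median, 2 genes (hnrnph1 and rbm15) were 2-fold higher on the melanophore-titled array, beside 6.89% of all measured genes, and 2 (rbm28 and prpf4ba) on the other, beside 7.85%. With scaling to the spike-ins these counts were 1 and 2, beside 6.56% and 8.21%. The share of splicing genes at 2-fold was thus at or under that of the measured genes at large. Fewer splicing genes than genes at large had a dimmer signal under the median (5.43% against 13.6%).

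**Figure D1:**
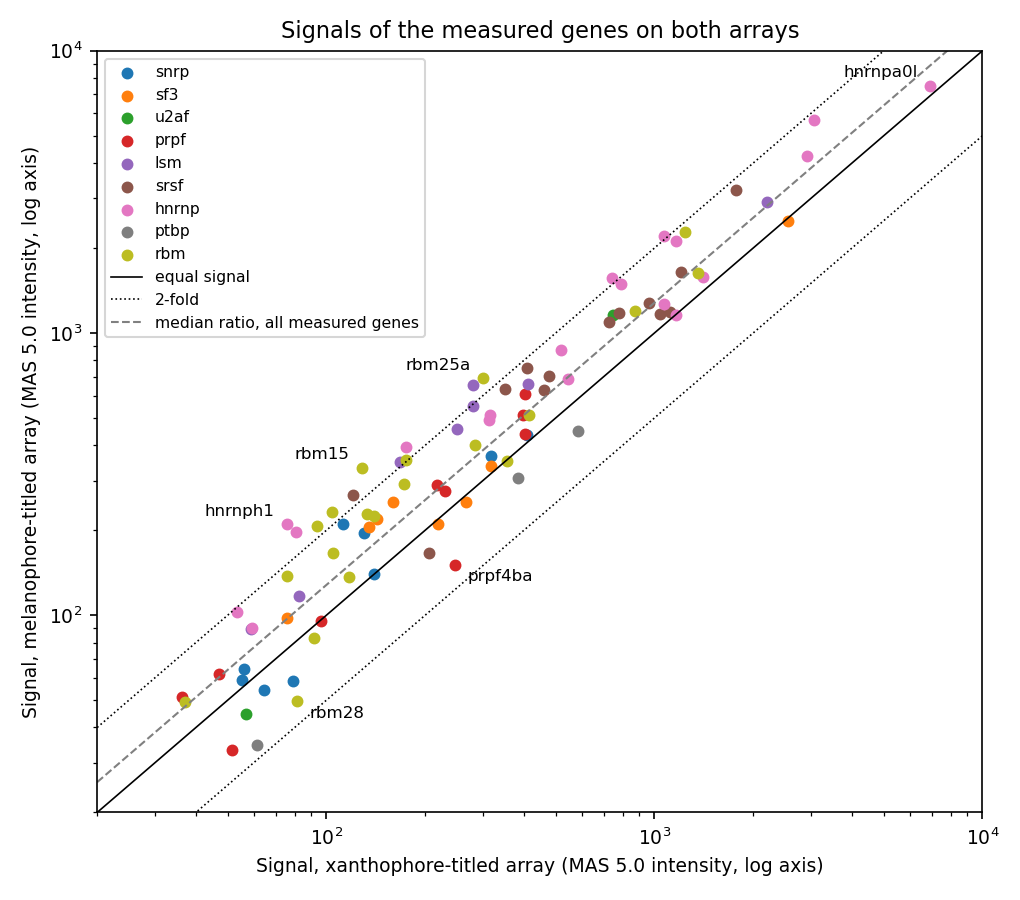
Signal of each of the 92 measured splicing and mRNA-binding genes on the xanthophore-titled array (x axis) and the melanophore-titled array (y axis), both as MAS 5.0 intensity on log axes, coloured by family. The points follow the dashed line, the median ratio of all measured genes, and 13 points reach the upper dotted 2-fold line and none the lower.

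The family medians differed within this range. The core and early-recognition families (snrp, sf3, u2af and prpf) had a joint median log2 ratio of 0.20 over 29 measured genes, with 11 above the overall median and none at 2-fold as deposited. The regulator families srsf and hnrnp had a joint median of 0.62 over 32 measured genes, with 24 above the overall median. As deposited, 6 of the 32 (18.8%) were at 2-fold towards the melanophore-titled array, beside 15.5% of all measured genes. After that median was subtracted 1 was, beside 6.89% of all measured genes. The medians were 0.78 for lsm, 0.75 for hnrnp, 0.68 for rbm, 0.55 for srsf, 0.25 for prpf, 0.23 for sf3, 0.18 for u2af, 0.093 for snrp and -0.38 for ptbp. The order of these medians is a description, and the differences between them were not tested. The joint medians depend on which families were pooled. They leave out ptbp, whose proteins also regulate exon use, with 0 of 3 measured genes above the median of all measured genes. They also leave out lsm, which includes genes of the U6 ring, with 8 of 8 above it, and rbm, with 13 of 20 above it. The lsm, hnrnp, rbm and srsf medians were above 0 in every scaling tried, whereas those of prpf, sf3, u2af and snrp fell below 0 with spike-in scaling, quantile normalization or the overall median subtracted, and that of ptbp rose to 0.12 when ribosomal protein genes were set equal. With a floor at the 65th percentile the snrp and prpf medians were both 0.33, which is the ratio of the 2 floors, since several of their genes were dim. The u2af median was then 0.48 and the hnrnp median 0.70. For comparison, 71 cytosolic ribosomal protein genes, another set of RNA-binding housekeeping genes, had a median of -0.50, and 1 of them lay above the overall median.

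**Figure D2:**
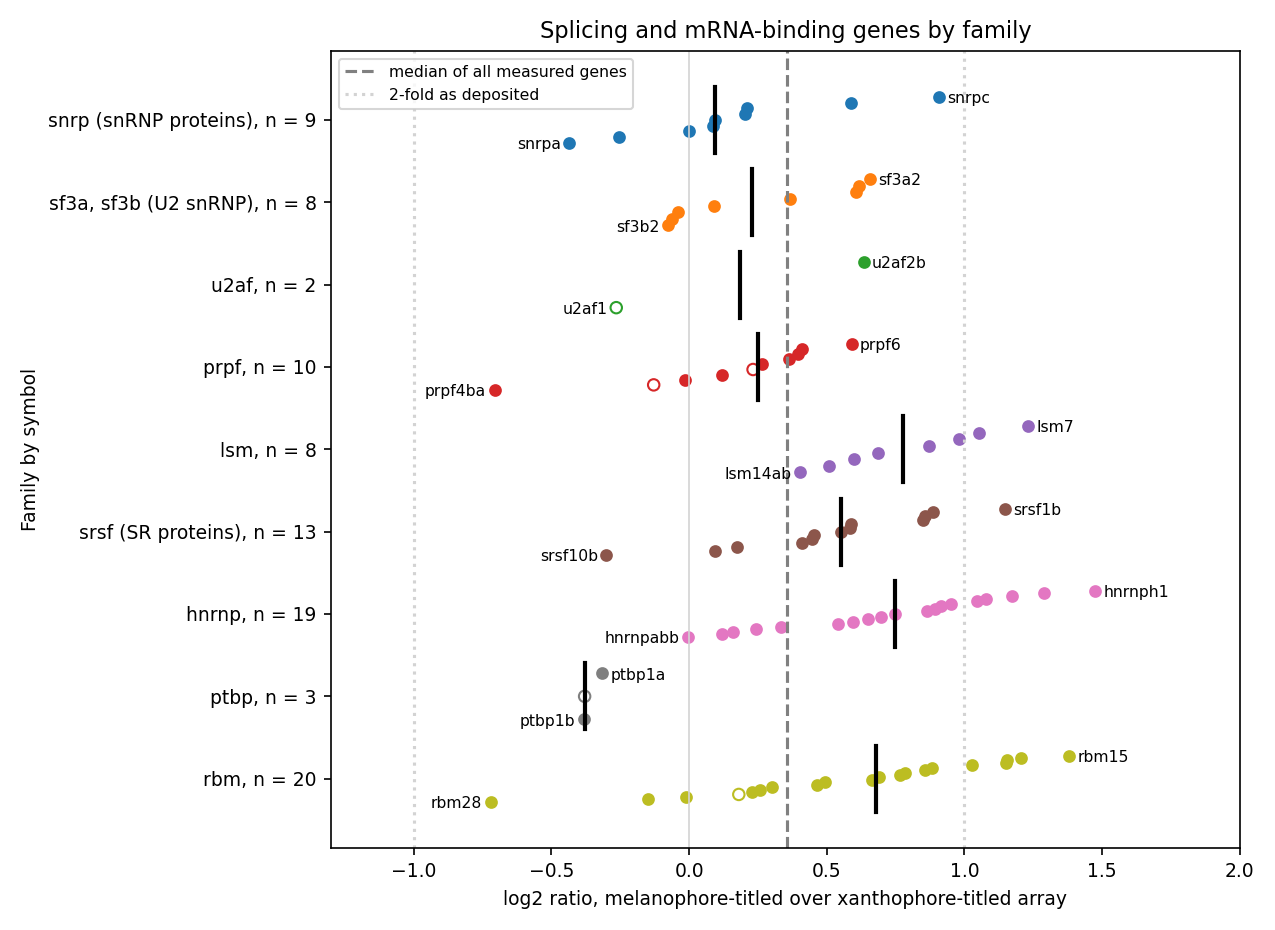
Log2 ratio (melanophore-titled over xanthophore-titled array) of each measured gene by family, with the family median as a black bar, the median of all measured genes as a dashed line, and open circles where the dimmer signal was under its array's median. The snrp, sf3 and prpf medians lie left of the dashed line, at 0.093, 0.23 and 0.25, and those of lsm and hnrnp right of it, at 0.78 and 0.75.

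As deposited, the snrp genes had the family median closest to equal signal (0.093). Read against the median of all measured genes it lay at -0.26, with 7 of 9 measured genes below. That was further off than the medians of prpf (-0.11), sf3 (-0.13), u2af (-0.17) and srsf (0.20). Equal signals such as those of snrpd1 below then become 1.28-fold towards the xanthophore-titled array. The Sm proteins form the ring that carries each spliceosomal snRNA, and their genes stood at 435 against 408 for snrpb, 140.0 against 140.0 for snrpd1 and 367 against 317 for snrpf. The ring gene snrpg stood at 58.7 against 55.3 and snrpd3l at 54.3 against 64.7. Only snrpe, at 196 against 130.4, lay above the overall median among the ring genes. The remaining ring genes, snrpd2 and snrpd3, were too dim to be measured on either array (21.2 against 12.2 and 23.1 against 29.4).

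The genes of the proteins particular to the U1 and U2 snRNPs split. U1 binds the 5′ splice site, with snrpc, the gene of its U1-C protein, at 210.2 against 112 (1.88-fold higher on the melanophore-titled array, log2 ratio 0.91), the highest of the family. The gene of the U1-A protein, snrpa, had the lowest at 58.5 against 79.1 (1.35-fold higher on the xanthophore-titled array). Thus the genes of 2 proteins of the same particle sat at the opposite ends of the family, 1.34 apart on the log2 scale, which no single scaling factor changes. Each ratio came from 1 probe set, and protein was not measured. The gene snrpa was dim, and with a floor at the 65th percentile both its signals lay under the floor. Another U1 protein gene, snrnp70, which the symbol rule does not take in, stood at 1374 against 818. Its ratio of 1.68-fold towards the melanophore-titled array was on the side of snrpc, so the contrast within U1 rests on snrpa alone. The U2 protein gene snrpb2 stood at 64.5 against 56.1.

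The SF3A and SF3B complexes are the parts of the U2 snRNP that hold the intron's branch point, and the ratios of their subunits were graded. The large subunit genes were almost equal in signal: sf3b1, whose protein grips the branch point, stood at 2485 against 2556, sf3b2 at 252 against 266, and sf3b3 at 338 against 318. The SF3A scaffold gene sf3a1, at 209.9 against 219, was like them. The other measured subunits were higher on the melanophore-titled array by 1.29-fold to 1.58-fold: sf3a2 (252 against 159.9), sf3a3 (219 against 143), sf3b6 (205 against 135), a small subunit near the branch point, and sf3b4 (97.9 against 76.0). Of these, sf3b4 lay at the median of all measured genes (1.01-fold once this was subtracted), between the other subunits. No step between neighbouring ratios was larger than the probe-set spread. No member reached 2-fold, and sf3b5 was not measured (41.1 against 35.2).

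U2AF marks the 3′ end of the intron before U2 arrives. Its large subunit gene u2af2b, which reads the polypyrimidine tract, stood at 1159.7 against 748 (1.55-fold), and its second probe set gave 1.67-fold. The small subunit gene u2af1, which reads the AG at the splice site, stood at 44.5 against 56.7, at least 1.20-fold higher on the xanthophore-titled array since the dimmer signal was under the median. The genes of the subunits of this heterodimer thus had ratios on opposite sides of equal signal as deposited, but u2af1 was too dim to give more than a bound.

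The PRPF genes encode proteins of the U4/U6.U5 tri-snRNP and of the activated spliceosome. Those of the tri-snRNP core were close to equal or to the overall median: prpf8, at the catalytic centre, at 438 against 403, prpf6, which bridges U5 and U4/U6, at 609 against 404, and prpf31 at 61.7 against 46.9. Their partners prpf4 and prpf3 stood at 95.0 against 96.0 and at 51.1 against 36.3, the latter with 1 signal under the median. Outside the tri-snRNP, prpf19, the ubiquitin ligase of the complex named after it, stood at 276 against 229.6, prpf39, a U1-associated factor in yeast, at 289 against 218, and prpf38b at 510.4 against 397.

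The exception was prpf4ba, a gene for the kinase that phosphorylates tri-snRNP proteins during assembly. It stood at 151 against 247, 1.63-fold higher on the xanthophore-titled array and 2.09-fold after the overall median was subtracted, with 6.83% of all measured genes lower. Its duplicate prpf4bb was just under the limit for measurement (46.8 against 32.9), so the pair could not be compared. The ratio of prpf38a, 33.3 against 51.6, was a bound of at least 1.09-fold towards the xanthophore-titled array, and with the floor at the 65th percentile both its signals fell under it.

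All 8 measured LSM genes lay above the overall median, with 2 at 2-fold as deposited (25%, beside 15.5% of all measured genes). The LSm ring binds the end of U6 snRNA in the nucleus and, in another form, starts mRNA decay in the cytoplasm. Among the measured ring genes those shared by both forms were the highest: lsm7 at 655 against 279 (2.35-fold), lsm6 at 349 against 168 (2.08-fold) and lsm4 at 457 against 250.1 (1.83-fold). The gene of the nuclear form, lsm8, stood at 89.1 against 58.9 (1.51-fold), and that of the cytoplasmic form, lsm1, was not measured (44.8 against 20.3). The ring genes' median of 0.96 (4 measured) stands beside that of 0.093 over the Sm ring and other snrp genes, a gap of 0.87 on the log2 scale over few genes. After the overall median was subtracted, none of the LSM genes reached 2-fold (lsm7 1.83-fold). With a floor at the 65th percentile both signals of lsm8 lay under it, as did both of lsm14aa.

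The other LSM genes encode proteins outside these rings. The genes lsm12a and lsm12b stood at 551 against 279.7 and 661 against 410.5, and lsm14aa and lsm14ab at 117 against 82.3 and 2918 against 2205. Their ratios ran from 1.32-fold for lsm14ab to 1.97-fold for lsm12a, under those of lsm6 and lsm7. The genes lsm11 and lsm14b were not measured, with no signal over 31.4.

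The 13 SR protein genes were all measured, and 10 of them lay above the overall median. The highest was srsf1b, a duplicate of the founding SR protein, at 268 against 121 (2.21-fold), and its second probe set repeated this at 2.17-fold. Next came srsf1a at 754 against 408 (1.85-fold), srsf3b at 634 against 350.3 (1.81-fold) and srsf6b at 3203 against 1777 (1.80-fold). After the overall median was subtracted, srsf1b stood at 1.73-fold, and no SR gene reached 2-fold.

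Below these, srsf2b, srsf5b, srsf4, srsf2a, srsf7a and srsf5a lay between 1.33-fold and 1.50-fold on the melanophore-titled side, close to the overall shift of 1.28-fold. The genes srsf11 (1170 against 1037) and srsf6a (1190.2 against 1115) were nearly equal in signal. The only SR gene higher on the xanthophore-titled array as deposited was srsf10b, at 166 against 205 (1.23-fold), whose mammalian counterpart represses splicing when dephosphorylated in heat shock. With bright and dim genes brought to a shared distribution by quantile normalization, the family median was 0.033.

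The hnRNP genes held the highest ratio of all measured splicing genes and 5 of the 13 at 2-fold. These 5 made 26.3% of the family as deposited, beside 15.5% of all measured genes. All 19 were measured, as deposited 18 were higher on the melanophore-titled array, and 14 lay above the overall median. The gene hnrnph1, whose protein binds runs of G, stood at 210.3 against 75.6 (2.78-fold), and hnrnpc, a protein of the core particle that binds runs of U, at 198 against 80.9 (2.44-fold). They were followed by hnrnpua, for the scaffold protein hnRNP U that also binds chromatin, at 394 against 175 (2.26-fold), hnrnpk, which binds C-rich RNA, at 1571 against 745 (2.11-fold), and the exon-silencing factor gene hnrnpa1b at 2205 against 1069.5 (2.06-fold). Only hnrnph1 kept 2-fold after the overall median was subtracted (2.17-fold) or after scaling to the spike-ins (2.13-fold); hnrnpc then stood at 1.91-fold and 1.88-fold. All of these were single probe sets.

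The rest of the family graded down to equality. The genes hnrnpul1 (103 against 53.2), hnrnpa0a, hnrnpa0b and hnrnpm (2115 against 1162) were 1.82-fold to 1.93-fold higher on the melanophore-titled array, and hnrnph1l (872 against 519), hnrnpr, hnrnpd, hnrnpl (89.7 against 59.4) and hnrnpaba lay between 1.46-fold and 1.68-fold. At or under the overall median were hnrnpub (686 against 545), hnrnpl2 (1264 against 1068), hnrnpdl (1573 against 1409), hnrnpa0l (7530 against 6936, on the platform marked as hybridising to several transcripts) and hnrnpabb (1155 against 1159.5). With a floor at the 65th percentile both hnrnpul1 signals lay under it, as did both hnrnpl signals. The genes of this family spanned 1.48 on the log2 scale, with an SD of 0.42 among them, under the probe-set SD of 0.46.

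All 3 measured PTBP genes lay on the xanthophore-titled side as deposited (their median was 0.12, on the other side, with ribosomal protein genes set equal), with 13.1% to 15.1% of all measured genes lower. Polypyrimidine tract binding proteins repress exons next to pyrimidine-rich stretches. The signals were 449 against 585 for ptbp1b (1.30-fold), 307 against 382 for ptbp1a (1.24-fold) and 34.8 against 61.4 for ptbp3 (at least 1.30-fold). The value for ptbp1a rests on the choice of probe set. Of its other probe sets 1 gave 492 against 227.5, 2.16-fold towards the melanophore-titled array, with almost the same mean signal, and 1 gave 54.9 against 56.1. The neural member ptbp2b was not measured (36.7 against 26.5).

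The RBM genes share an RNA recognition motif and little else, and spread most widely, from -0.72 to 1.38 over 20 measured genes. As deposited, 5 of the 20 (25%) were at 2-fold, beside 15.5% of all measured genes. The highest was rbm15, an adaptor of the complex that methylates adenosines in mRNA, at 333 against 128 (2.60-fold, and 2.03-fold after the overall median was subtracted). The splicing factors rbm25a (691 against 299.7, 2.31-fold), which associates with U1, and rbm39b (232 against 104, 2.23-fold), a relative of U2AF, were next, with rbm4.1 (208 against 93.5, 2.22-fold) and rbm6 (356 against 175, 2.04-fold). At the other end, rbm28 stood at 49.5 against 81.6, 1.65-fold higher on the xanthophore-titled array and 2.11-fold after the overall median was subtracted. Its low signals fell under a floor at the 65th percentile on both arrays.

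The remaining measured RBM genes lay between rbm28 and rbm6, the lowest of those at 2-fold. The gene rbm22, whose protein contacts the U6 snRNA at the catalytic centre, had signals of 352 against 355, rbm8a, an exon junction core protein, of 1200.3 against 871 (1.38-fold), and rbm5, which represses exons, of 400.2 against 285. The 3′ splice site factor rbm17 stood higher at 137 against 75.7 (1.81-fold), as did rbm14a (229 against 133) and rbm7 (293 against 172), a subunit of the nuclear exosome targeting complex. The genes rbm12bb, rbm45 and rbm26 had ratios of 1.61-fold, 1.59-fold and 1.17-fold, and rbm47, at 49.3 against 37.0, had a bound of at least 1.13-fold. In the rbm4 group, rbm4.2 (2279 against 1235) and rbm4.3 (1627 against 1361) stood at 1.84-fold and 1.19-fold, below rbm4.1. The genes rbm44 and rbm46, both of germ cells in mammals, and rbm33b were not measured, with no signal over 28.8.

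Of the 103 genes, 11 were not measured, and none of their signals passed 46.8 on the melanophore-titled or 35.2 on the xanthophore-titled array. They were snrpd2, snrpd3, sf3b5, prpf4bb, lsm1, lsm11, lsm14b, ptbp2b, rbm33b, rbm44 and rbm46. For the general factors among them, a dim probe set does not show that the transcript was missing.

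Several genes had more than 1 measured probe set, which is the only repeat measurement in these data. For 8 of 13 such genes the lowest and highest log2 ratios lay within 0.46 of each other, closest for srsf1b (0.029), lsm14aa (0.035) and u2af2b (0.11). Other genes of this kind were sf3b1 (0.23), lsm12b (0.25), hnrnpa0a (0.34), hnrnpd (0.35) and rbm4.2 (0.42). For rbm4.1 and srsf6a the probe sets lay 0.53 and 0.50 apart.

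For 3 genes the probe sets disagreed by more than 1 on the log2 scale. The gene hnrnpa0b had 3 probe sets between 1.51-fold and 1.86-fold, among them the one used (5689 against 3060), and 1 at 6.88-fold (1139.8 against 166). For rbm39b the probe set used gave 2.23-fold, and the other, at 85.7 against 79.9, gave 1.07-fold. As described above, ptbp1a ran from 1.24-fold on the xanthophore-titled side to 2.16-fold on the other. The large ratio of a single hnrnpa0b probe set and the 2-fold call of rbm39b were therefore not repeated by other probe sets of the same gene, whereas both srsf1b probe sets gave 2-fold. With the median over probe sets, 11 of the 13 genes kept 2-fold, without rbm39b and rbm4.1.

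**Figure D3:**
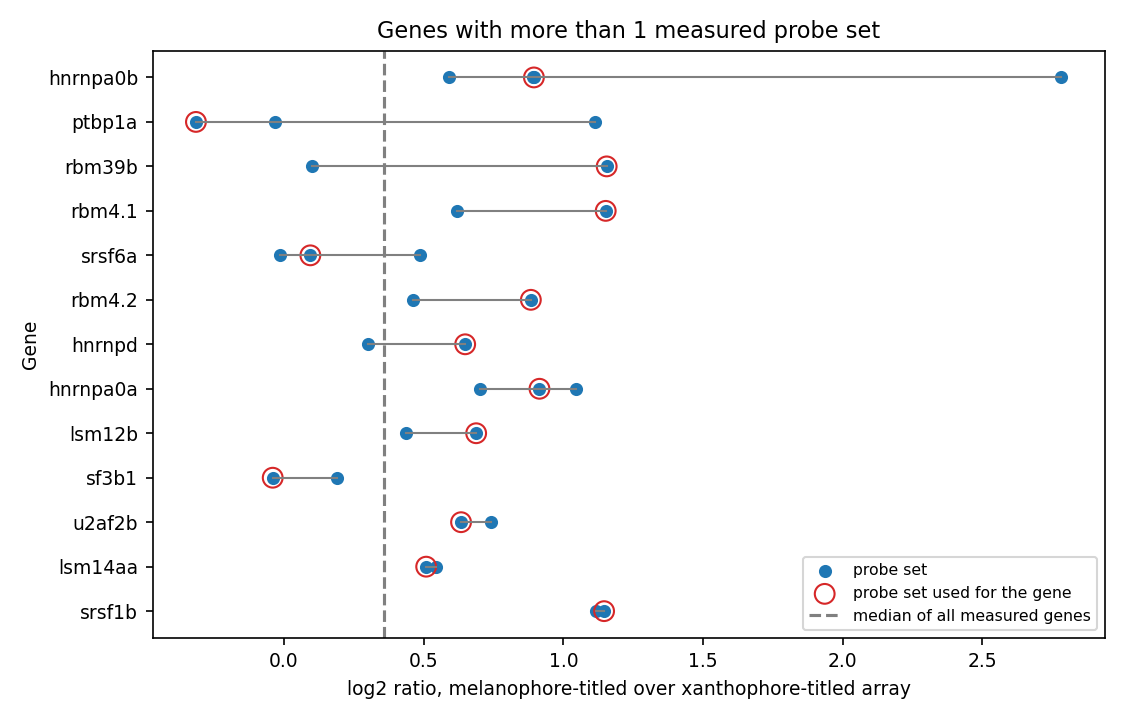
Log2 ratio (melanophore-titled over xanthophore-titled array) of every measured probe set of the 13 genes with more than 1, with the probe set used for the gene ringed in red and the median of all measured genes dashed. The hnrnpa0b, ptbp1a and rbm39b probe sets lie furthest apart, by 2.19, 1.43 and 1.05, and those of srsf1b closest.

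Zebrafish keep many duplicate genes, marked a and b, from the whole-genome duplication at the base of the teleost fishes, and 12 such pairs were measured, beside prpf38a and prpf38b, which carry the same letters but are separate genes in mammals too. The difference between the ratios of a pair is not changed by any scaling that multiplies an array by 1 factor. The probe-set SD was 0.46 over all genes and 0.54 over splicing genes, or 0.37 without 1 hnrnpa0b probe set. From the value of 0.46, 2 single ratios are expected to differ with an SD of 0.65, a rough limit. In 9 of the 13 pairs the difference was smaller than this, with the pairs hnrnpa0a and hnrnpa0b (0.020), ptbp1a and ptbp1b (0.066), lsm14aa and lsm14ab (0.10), srsf2a and srsf2b (0.13) and srsf5a and srsf5b (0.18) closest. The ptbp1 difference rests on the choice of ptbp1a probe set. With the median over probe sets it was 0.35. A ptbp1a probe set that was not used, at 492 against 227.5, would set this pair far apart. The srsf5 signals were 1282 against 964 and 1174 against 780.2, and the srsf2 signals 1643 against 1201 and 1094 against 729. The srsf1, lsm12, prpf38 and hnrnpab pairs lay 0.26, 0.29, 0.49 and 0.55 apart.

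The remaining 4 pairs differed by more. The widest was rbm25a, at 691 against 299.7, against rbm25b, at 82.8 against 91.9, with log2 ratios 1.36 apart. The pair rbm39a (510.3 against 414) and rbm39b (232 against 104) lay 0.85 apart, hnrnpua (394 against 175) and hnrnpub (686 against 545) 0.84, and srsf6a (1190.2 against 1115) and srsf6b (3203 against 1777) 0.76. In rbm25 and hnrnpu the a gene had the higher ratio towards the melanophore-titled array, and in rbm39 and srsf6 the b gene. The rbm39 difference fell to 0.33 with the median over probe sets, and the rbm25 difference to 0.87 with a floor at the 65th percentile, under which both rbm25b signals lay.

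**Figure D4:**
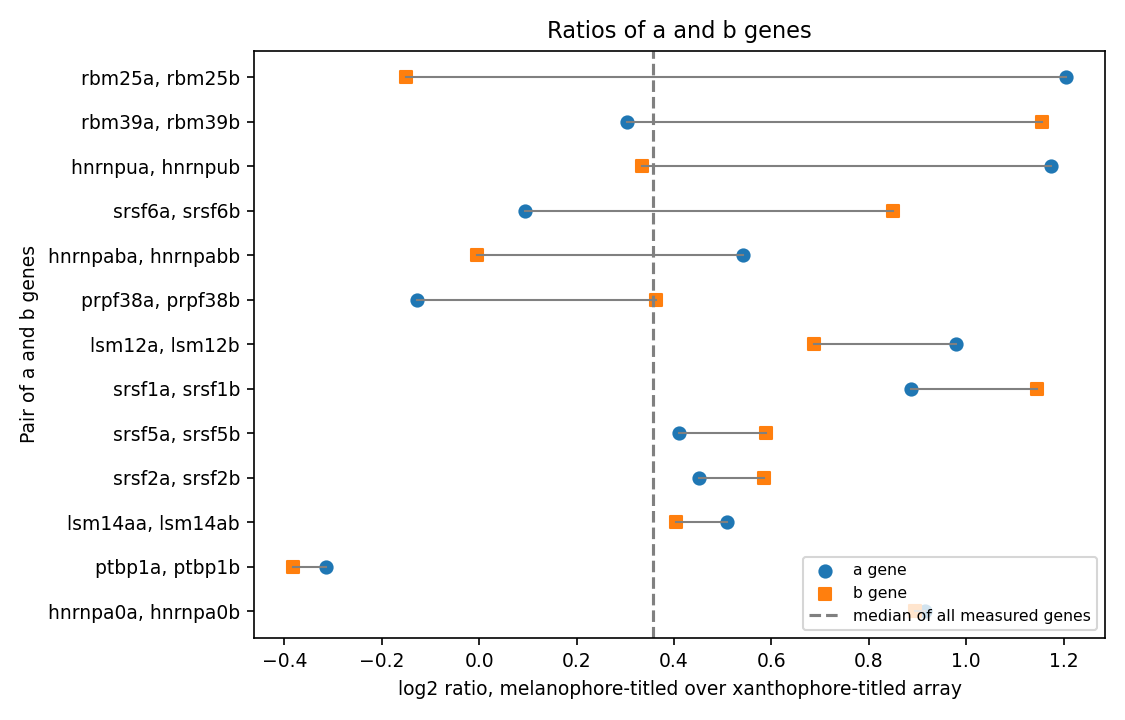
Log2 ratio (melanophore-titled over xanthophore-titled array) of the a gene (blue circle) and the b gene (orange square) of 13 pairs, ordered by their difference, with the median of all measured genes dashed. The rbm25 pair is 1.36 apart and the hnrnpa0 pair 0.020.

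The wider machinery, on 6 lists of 200 genes in all that the symbol rule does not take in, stood much where the named families did. Of these, 143 had a symbol on the array and 116 were measured. As deposited, 14 differed 2-fold or more towards the melanophore-titled array (12.1%, beside 15.5% of all measured genes) and 0 towards the other (beside 4.09%), and the median log2 ratio was 0.40. After the overall median was subtracted, 4 genes (prmt5, magoh, pnn and msi2b) were 2-fold higher on the melanophore-titled array and 3 (srpk1a, rbfox1 and snu13a) on the other, beside 6.89% and 7.85% of all measured genes. All of these 7 except snu13a lay further from the overall median than any gene of the named families.

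Genes for snRNP assembly had the lowest list median, 0.0066 over 10 measured genes. As deposited, 3 of the 10 (30%) were at 2-fold, beside 15.5% of all measured genes. After the median of all measured genes was subtracted, 1 of them (prmt5) was, beside 6.89%. The Sm proteins are methylated by prmt5 with its partner wdr77 before the SMN complex loads them on snRNA. The methyltransferase gene prmt5 stood at 298 against 83.5 (3.57-fold), wdr77 at 166 against 69.3 (2.39-fold), and phax, which exports snRNA precursors, at 127 against 55.5 (2.30-fold). Their companion clns1a, at 124 against 122, and the SMN complex genes smn1, at 108 against 109.6, and gemin2, at 60.4 against 72.6, were not higher on the melanophore-titled array by more than 1.02-fold. Of the other SMN complex genes, gemin4 stood at 61.6 against 43.4 (at least 1.42-fold) and gemin7 at 95.5 against 128.5. Under a floor at the 65th percentile prmt5 kept 3.19-fold, but wdr77 and phax fell to 1.77-fold and 1.36-fold.

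Among exon junction and export genes (14 measured, median 0.52), 1 was at 2-fold as deposited (7.14%, beside 15.5% of all measured genes). This was magoh, at 150 against 43.3, at least 3.44-fold. The junction complex is deposited upstream of joined exons and consists of magoh, rbm8a, eif4a3 and casc3. The partners had lower ratios: casc3 stood at 1.61-fold (1432 against 891), eif4a3 at 1.39-fold (905 against 649) and rbm8a at 1.38-fold. Because the dimmer magoh signal was at the floor, its bound fell to 1.60-fold under a floor at the 65th percentile.

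The SR-related and kinase genes (15 measured, median 0.48) included pnn, for pinin, a protein of both splicing speckles and the desmosome, at 277 against 86.0 (3.22-fold). In the nucleus pinin binds sap18 and rnps1, whose genes stood at 202 against 94.5 (2.13-fold) and 277 against 219 (1.27-fold). As deposited, 2 of the 15 genes (13.3%) were at 2-fold towards the melanophore-titled array, beside 15.5% of all measured genes. The SR protein kinase gene srpk1a ran the other way, at 155 against 289 (1.86-fold higher on the xanthophore-titled array). The kinase gene prpf4ba, described above, was also on that side, while clk4a, at 3306 against 2302, was 1.44-fold higher on the melanophore-titled array. The kinase gene clk2b (48.6 against 50.8) was dim and close to equal. For clk2a (39.4 against 43.7) the melanophore-titled signal was under its array's median, so its ratio was only a bound. The kinase genes thus had no common direction.

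Of the other snRNP proteins (19 measured, median 0.29), sart1 (142 against 65.7, 2.17-fold) of the tri-snRNP and sart3 (938 against 454, 2.07-fold), which helps to rejoin U4 and U6, were at 2-fold. They made 10.5% of the list as deposited, beside 15.5% of all measured genes. Neither kept 2-fold after the median of all measured genes was subtracted. The tri-snRNP protein gene snu13a stood at 64.8 against 109, 1.68-fold higher on the xanthophore-titled array, and its duplicate snu13b at 273 against 302. With the floor at the 65th percentile snu13a and sart1 had log2 ratios of 0.11 and 0.61. In the Prp19 complex and step factors (21 measured, median 0.42), bcas2 (205 against 88.8, 2.30-fold) and ppil3 (126 against 59.7, 2.11-fold, or 1.35-fold under the higher floor) were at 2-fold, against 1.22-fold for cdc5l, another core protein of the complex, and 1.20-fold for prpf19. Both together made 9.52% of that list as deposited, again beside 15.5%. Neither bcas2 nor ppil3 kept 2-fold after the median of all measured genes was subtracted.

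Among other mRNA-binding regulators (37 measured, median 0.40), 4 were at 2-fold (10.8%, beside 15.5% of all measured genes). These were msi2b, a Musashi translational regulator, at 265 against 94.2 (2.81-fold), fubp1 at 1775 against 739.5 (2.40-fold), the hnRNP-like syncripl at 1069.5 against 493 (2.17-fold) and celf2 at 643 against 315 (2.04-fold). The value for fubp1 was 1.67-fold with the median over its probe sets. The alternative splicing factor gene rbfox1, best known in neurons and muscle, stood at 97.0 against 175 (1.81-fold higher on the xanthophore-titled array), and its relative rbfox2 at 154 against 93.4, on the other side. The epithelial splicing factor gene esrp1 stood at 90.4 against 63.0.

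**Figure D5:**
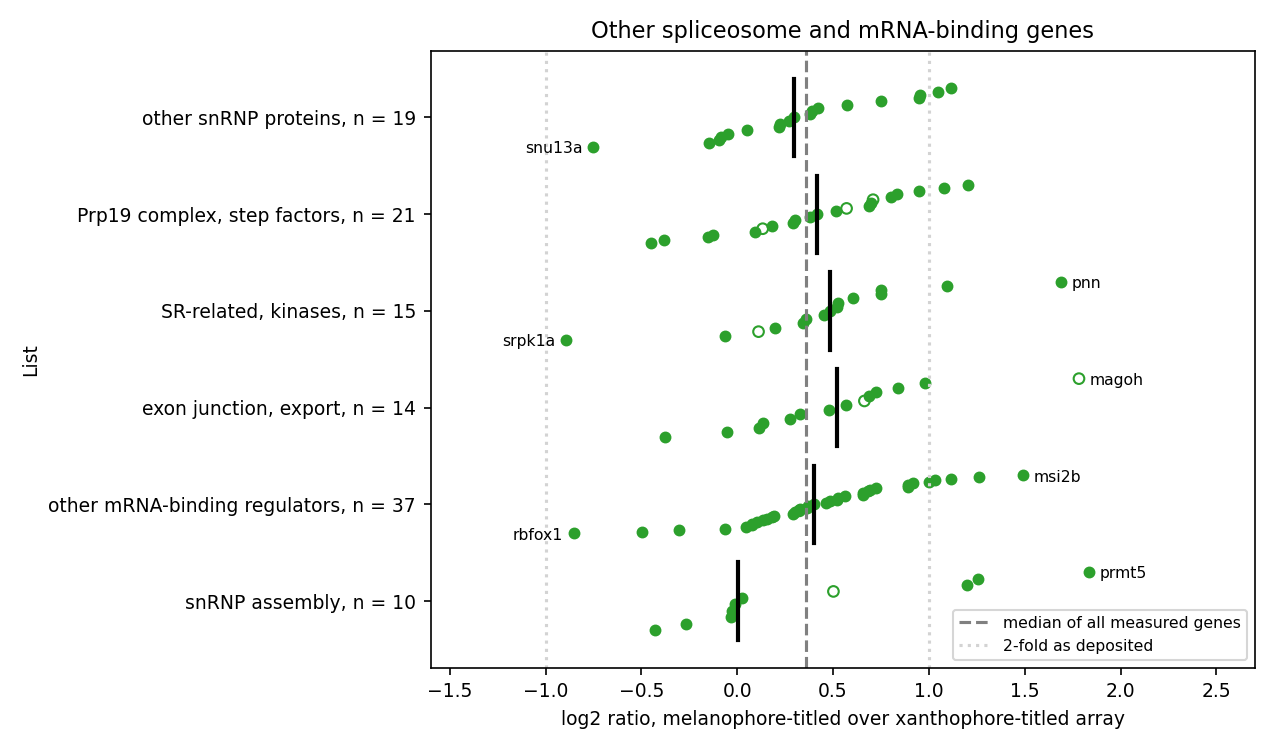
Log2 ratio (melanophore-titled over xanthophore-titled array) of each measured gene on the 6 further lists, with list medians as black bars, the median of all measured genes dashed and open circles where the dimmer signal was under its array's median. Named points are those 2-fold or more from the dashed line, and the snRNP assembly median lies at 0.0066.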

How the data were processed

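RNA from 2 pigment cell preparations was hybridised to 1 Affymetrix array each. Per the labels' protocols, the deposited values are signal intensities on a linear scale, processed with MAS 5.0 by an outside service; detection calls and the scaling target were not given in the sources used here. The number of arrays limits precision. The table holds 15502 transcript probe sets. Of these, 10795 had 1 gene symbol in the platform annotation (1 updated through the NCBI gene ID), 135 had several and 4572 had none here. A gene took its probe set with the highest mean log2 signal. Samples were grouped by title.

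Genes were counted at 2-fold, with no test. Genes named are those at 2-fold as deposited or after the overall median was subtracted, the ends of each family, a and b pairs (snrpa and snrpb match by letter but are different proteins and were left out), genes with several probe sets, and other members in the account of each family. Partner genes on the further lists were added after their values were seen. The members and lists were chosen with earlier results of these data known. The calculation was tested on simulated data. Python 3.11.15, NumPy 2.4.6 and pandas 2.3.3 were used. Alternatives covered scaling, floors, the dim filter, probe set choice and probe sets open to cross-hybridisation. No sequences were used.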

Additional observations from a re-analysis of the deposited data

How the results depend on the processing

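Scaling decided most counts. The 13 splicing genes at 2-fold towards the melanophore-titled array became 1 with spike-in scaling, 2 with the overall median subtracted, 1 with quantile normalization and 46 with ribosomal protein genes set equal, and the 0 towards the xanthophore-titled array became 2, 2 and 1 under the first 3 settings. The 14 genes at 2-fold on the further lists became 4, 4, 4 and 50, and the 0 on the other side 3, 3 and 4. Setting ribosomal protein genes equal moved the median log2 ratios to 1.00 over all splicing genes, 0.59 for snrp, 0.73 for sf3, 0.68 for u2af, 0.75 for prpf, 1.28 for lsm, 1.05 for srsf, 1.25 for hnrnp, 0.12 for ptbp, 1.18 for rbm and 0.89 for the further lists, and quantile normalization moved srsf to 0.033. Spike-in scaling, ribosomal scaling and subtraction of the median shift ratios together, and quantile normalization does not. With the floor at the 65th percentile or the filter at the 75th, 9 and 7 genes of the further lists were at 2-fold and 0 a and b pairs differed by 1 or more, against 1 pair. The higher floor raised the dim signals, and the stricter filter left 60 of 92 splicing genes. Under the floor at the 25th percentile and without probe sets open to cross-hybridisation, all 13 genes kept 2-fold. A value of 0.33 with the higher floor is the ratio of the floors, given to genes under both. Dim genes (such as rbm28, snrpa, u2af1, ptbp3, prpf38a and hnrnpul1) are limited by signal near background. No paired analysis was possible because each group has 1 array.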
